A study of Mus musculus with 4 samples.

Results

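The miR-99/100 and miR-125 families are represented here by 5 mature miRNAs, mmu-miR-99a-5p, mmu-miR-99b-5p, mmu-miR-100-5p, mmu-miR-125a-5p and mmu-miR-125b-5p, out of 1979 mature miRNAs in the deposited table. They were selected by name, with their KO to WT ratios in these same libraries already known, so those ratios and everything measured in the same libraries are given below as description and without a test. For a miRNA with several lines in the table, 1 for each precursor hairpin, the line with the highest summed count was used. All 5 passed the filter on low values, a mean of at least 10 RPM (reads per 1000000 counts of a library) over the 4 libraries, which 251 miRNAs passed in all.

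Small RNA was sequenced from resting bone marrow derived macrophages (BMDMs), which are macrophages grown from mouse bone marrow in the growth factor M-CSF. Libraries WT A and WT B came from mice with wild-type mir-146a, library KO from mice homozygous for a deletion of mir-146a, and library 3′F from mice homozygous for a non-seed swap, in which the 3′ part of the miR-146a duplex was exchanged between its strands. Both mutant alleles were made by gene targeting in embryonic stem cells, and all mice were of mixed 129 and B6 background and 6 to 7 months old. Cultures grew in medium with M-CSF (10 ng/ml) over 8 to 9 days and rested 16 h in fresh medium free of LPS. The deletion is present in every cell and not only in macrophages, and the sources name 3 mice of each genotype without saying whether a library pools them. WT A and WT B are separate cultures, and KO and 3′F have 1 library each, so no difference from WT has a replicate check and no p-value is given. The libraries held 17073442 counts for WT A, 11410940 for WT B, 19087640 for KO and 16194595 for 3′F.

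A mature miRNA is a short strand cut from a hairpin and loaded into an Argonaute protein, where its seed, the bases near its 5′ end, pairs with mRNAs and represses them. miR-100 is among the oldest animal miRNAs, and the miR-99/100 family is known for repressing Mtor and Igf1r, components of growth factor signalling. The miR-125 family descends from the same ancestor as lin-4, the founding miRNA of the worm. miR-125b is known in macrophages for repressing Irf4 and Tnf, and in haematopoietic stem cells, where both miR-125 forms are abundant, for repressing the cell death gene Bak1. In vertebrates the hairpins of a miR-99/100 gene, a let-7 gene and a miR-125 gene lie one after the other on the same strand, an arrangement inherited from early animals, and let-7 itself represses Lin28a and Hmga2. miR-146a, the miRNA altered in these mice, is induced by NF-kB and represses its activators Irak1 and Traf6.

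The mature sequences are shown because the members differ by few bases, which bears on how their reads can be told apart. They are written 5′ to 3′ from RefSeq (GRCm38.p6), with the seed, bases 2 to 8, in capitals.
mmu-miR-99a-5p: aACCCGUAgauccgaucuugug
mmu-miR-100-5p: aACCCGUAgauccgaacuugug
mmu-miR-99b-5p: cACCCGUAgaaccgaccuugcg
mmu-miR-125a-5p: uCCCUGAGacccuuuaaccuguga
mmu-miR-125b-5p: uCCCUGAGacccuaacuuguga
Counted from 1 at the 5′ end, miR-100-5p differs from miR-99a-5p at 1 of 22 positions, U16A, and miR-99b-5p differs from miR-99a-5p at 4, A1C, U11A, U16C and U21C. miR-125a-5p, with 24 bases, and miR-125b-5p, with 22, share their first 13 and their last 5 bases. The seed ACCCGUA belongs to these 3 of the 1679 mature miRNAs in the RefSeq table and to no other. The seed CCCUGAG belongs to 5, namely miR-125a-5p, miR-125b-5p, miR-351-5p, miR-6367 and miR-6394.

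miR-125b-5p is made from a pair of hairpins whose 5p strands are identical. Their 3p strands differ at 5 of 22 positions, G3A, G4A, U7C, C11U and G20C from miR-125b-1-3p to miR-125b-2-3p, so that these strands tell the loci apart. They are written in the same way, with bases 2 to 8 in capitals.
mmu-miR-125b-1-3p: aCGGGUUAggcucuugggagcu
mmu-miR-125b-2-3p: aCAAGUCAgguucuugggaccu
The positions that follow are from the GENCODE vM21 annotation of GRCm38, since the deposited table gives none and names no build, and all 9 hairpins named lie on the plus strand. On chromosome 16, Mir99a lies from 77598936 to 77599000, Mirlet7c-1 from 77599657 to 77599750 and Mir125b-2 from 77646273 to 77646343. All 3 are in introns of Mir99ahg, a noncoding host gene on the same strand, and Mir125b-2 also overlaps an exon of the same-strand gene C130023A14Rik. On chromosome 17, Mir99b lies from 17830188 to 17830257, Mirlet7e from 17830352 to 17830444 and Mir125a from 17830812 to 17830879. They lie within the protein-coding gene Spaca6, Mir99b and Mirlet7e in introns and Mir125a in an intron of 2 transcripts and an exon of 1. On chromosome 9, Mir100 lies from 41531425 to 41531504, Mirlet7a-2 from 41536716 to 41536811 and Mir125b-1 from 41581926 to 41582002. These are in introns of the noncoding genes 3110039I08Rik and Gm49317, and Mir100 also overlaps an exon of the antisense lincRNA gene Gm48742, and Mir125b-1 an exon of the same-strand gene Gm28119. The cluster on chromosome 17 spans 692 bp, against 47408 bp on chromosome 16 and 50578 bp on chromosome 9.

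The libraries were first checked against their labels. miR-146a-5p was at 6253 RPM for WT A, 5485 for WT B, 13.4 for KO and 6.64 for 3′F, far below both WT libraries in each mutant. That line holds the wild-type sequence, so its fall does not tell KO from 3′F. The line for the swapped strand, miR-146swap-5p, held 171 counts or 10.6 RPM in 3′F and 0 counts in the other 3 libraries. These levels of the wild-type and swapped strands are not compared with each other, because sequencing recovers different sequences unequally. Among miRNAs that mark macrophages and other myeloid cells, miR-223-3p was at 1574, 1466, 1636 and 1503 RPM for WT A, WT B, KO and 3′F. miR-142a-3p, found across blood cells, was at 1721, 1121, 1115 and 1071 RPM in the same order. These markers were thus abundant in every library, while miR-155-5p and miR-511-3p, induced or expressed in macrophages, were lower, at 55.2 to 71.3 and 65.6 to 80.8 RPM. miR-150-5p, a marker of mature lymphocytes, was at 2.93, 2.80, 2.51 and 1.54 RPM. miR-199a-3p, a marker of fibroblasts and other stromal cells, was at 3.18, 3.71, 3.63 and 3.21 RPM, and both were low in every library.

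The members spanned a wide range of levels, and their order was the same in all 4 libraries, with miR-99b-5p highest, followed by miR-99a-5p, miR-125a-5p, miR-125b-5p and miR-100-5p. miR-99b-5p was at 10163 ± 1384 RPM in WT (SD, n = 2 cultures) and miR-99a-5p at 8462 ± 879 RPM, a difference smaller than the sum of their SDs, although miR-99b-5p was the higher in each library. The other steps were wider. miR-125a-5p was at 1494 ± 120.2 RPM, miR-125b-5p at 514.6 ± 0.608 RPM on its higher line, and miR-100-5p at 43.6 ± 2.59 RPM. Ligation to the adapters depends on a small RNA's sequence, so that levels of different sequences, unlike those of 1 sequence in different libraries, compare only roughly.

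miR-99b-5p and miR-99a-5p ranked among the abundant miRNAs of these macrophages. By level within a library, miR-99b-5p ranked 9 and miR-99a-5p 10 within WT A, and in WT B they ranked 10 and 15. The miR-99/100 family summed to 2.03% of counts in WT A, 1.71% for WT B, 2.47% for KO and 2.05% for 3′F. The miR-125 family, with 1 of the miR-125b-5p lines, summed to 0.192%, 0.209%, 0.315% and 0.229%. With both lines it summed to 0.242%, 0.259%, 0.389% and 0.282%. KO held the highest share of both families, and 3′F lay just above the higher WT library. Counting error alone (95% Wilson interval) put the miR-99/100 share in KO between 2.46% and 2.48% and the miR-125 share on 1 line between 0.313% and 0.318%, and these intervals cover neither the spread of cultures nor repeated copies of a molecule.

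**Figure D1:**
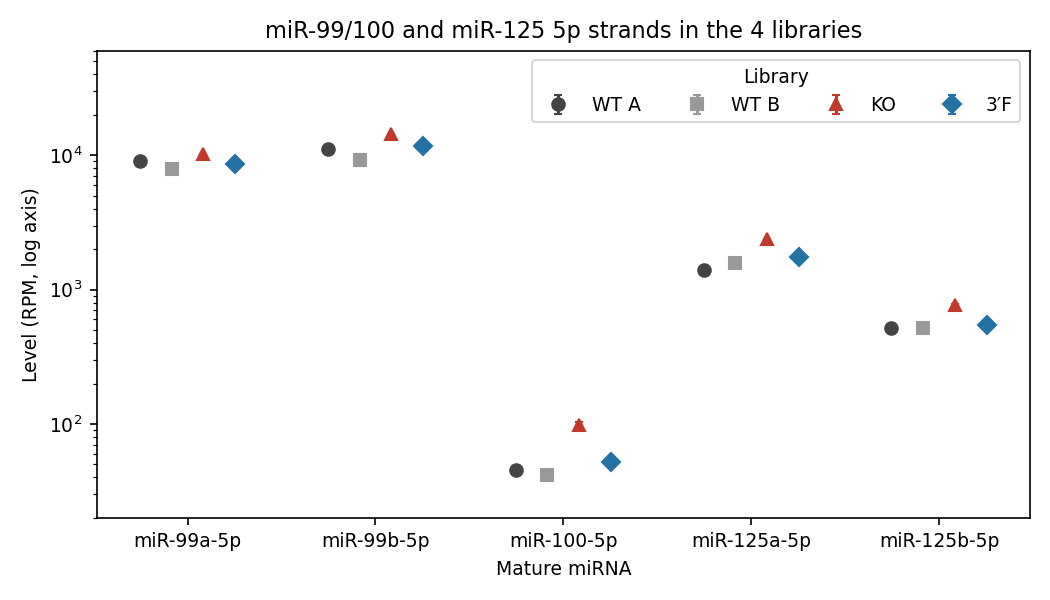
Level of each member in each library, in RPM on a log axis, with 95% Wilson intervals as bars that are mostly smaller than the symbols. miR-99b-5p and miR-99a-5p sit at the top of the plot and miR-100-5p below 100 RPM, and for each of the 5 the KO symbol is the highest.

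In KO, all 5 members were above both WT libraries. Across the 251 expressed miRNAs, 37.8% were above both WT libraries in KO, so that this direction was common. The median log2 ratio of the members to WT, taken on the log2(RPM + 1) scale against the averaged log2 values of WT A and WT B, was 0.59, with a range from 0.27 to 1.15. The median over all expressed miRNAs was 0.01, with quartiles at -0.27 and 0.22. At a threshold of 1.5-fold from both WT libraries, 2 of the 5 were higher in KO, miR-100-5p and miR-125a-5p, against 4.78% of expressed miRNAs. At 2-fold, miR-100-5p alone was higher, against 1.99%. Because the members were chosen with these ratios known, nothing further is read from the shares. A level in RPM is a share of a library, and in a mixed culture fewer cells of a type and less RNA per cell cannot be told apart.

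Within the miR-99/100 family, miR-99a-5p was at 9083 RPM for WT A, 7840.4 for WT B, 10170.0 for KO and 8671 for 3′F. KO was the highest library and 3′F lay between the WT libraries. The log2 ratio of miR-99a-5p was 0.27 for KO and 0.04 for 3′F, and WT B was 0.21 below WT A, a log2 difference of -0.21. Against a single WT library, the KO ratio of miR-99a-5p was 0.38 over WT B and 0.16 over WT A. The KO ratio of miR-99a-5p was thus little larger than the difference between the WT cultures, and it was the smallest of the 5.

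miR-99b-5p was at 11142 RPM for WT A, 9185 for WT B, 14446 for KO and 11757 for 3′F. KO was highest, and 3′F was slightly above WT A and further above WT B. The log2 ratio was 0.51 for KO and 0.22 for 3′F, against -0.28 for WT B relative to WT A. The 3′F ratio depended on the WT library, with 0.36 over WT B and 0.08 over WT A. In KO, miR-99b-5p was 1.30-fold the level in WT A and 1.57-fold that in WT B.

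miR-100-5p, the rarest member, had the largest ratio of the 5. It had 775.5 counts for WT A, 476.5 for WT B, 1872.5 for KO and 850.5 for 3′F, which are 45.4, 41.8, 98.1 and 52.5 RPM. KO stood well apart, with an interval of 93.8 to 103 RPM, while the interval of 3′F, 49.1 to 56.2 RPM, began just above that of WT A, which ended at 48.7 RPM. KO had 2.16 times the level of WT A and 2.35 times that of WT B. Its log2 ratio was 1.15, against -0.12 for WT B relative to WT A. The ratio in 3′F was 0.26. Among the 251 expressed miRNAs ordered by their KO ratio from the highest, miR-100-5p ranked 6, miR-125a-5p 12, miR-125b-5p 17, miR-99b-5p 19 and miR-99a-5p 54.

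The counts of miR-99a-5p and miR-100-5p, which differ by 1 base, both ended in 0.5 in every library, while those of miR-99b-5p were whole. Counts that are not whole mark reads divided between lines, and how the reads were divided is not given in the sources used here. miR-100-5p made up 0.500 counts for every 100 counts of miR-99a-5p in WT A, 0.533 for WT B, 0.965 for KO and 0.606 for 3′F. This value was highest in KO. How many reads of miR-99a-5p were counted under miR-100-5p was not tested.

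Within the miR-125 family, miR-125a-5p had 24049 counts for WT A, 18012 for WT B, 45411 for KO and 28174 for 3′F, all whole. In the same order, its levels were 1409, 1578, 2379 and 1739.7 RPM. KO was highest and 3′F was next, above both WT libraries. The log2 ratio of miR-125a-5p was 0.67 for KO and 0.22 for 3′F, against 0.16 for WT B relative to WT A. For 3′F it was 0.14 over WT B and 0.30 over WT A.

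miR-125b-5p was at 514 RPM for WT A, 515 for WT B, 773 for KO and 549.6 for 3′F on its line for the mir-125b-1 hairpin. The WT libraries nearly coincided, with KO clearly above them and 3′F slightly above. The log2 ratio was 0.59 for KO and 0.09 for 3′F, against 0.00 between the WT libraries. On the log2(RPM + 1) scale miR-125b-5p, 0.58 above WT B, lay just outside the 1.5-fold threshold, and miR-125a-5p, 0.59 above WT B, lay just inside it. Without the pseudocount, miR-125b-5p lies just above 1.5-fold of both WT libraries, so that its side of the threshold depends on the pseudocount.

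The line for the mir-125b-2 hairpin held nearly as much, 496 RPM for WT A, 501 for WT B, 738 for KO and 534 for 3′F. The 2 lines ended in the same fraction in each library, 0.5 for WT A, WT B and 3′F and 0 for KO. Among miRNAs with identical values on up to 3 lines, 41 of 56 values that were not whole became whole, within 0.01 per line, when multiplied by their number of lines, the pattern of reads divided equally among the lines they fit. For miRNAs on more lines, which this tally leaves out, some values became whole and others did not. If reads were divided equally, the sum of both lines is the fuller level of miR-125b-5p, 1011 RPM for WT A, 1016 for WT B, 1511 for KO and 1083 for 3′F. Its order among the members is the same on either measure.

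**Figure D2:**
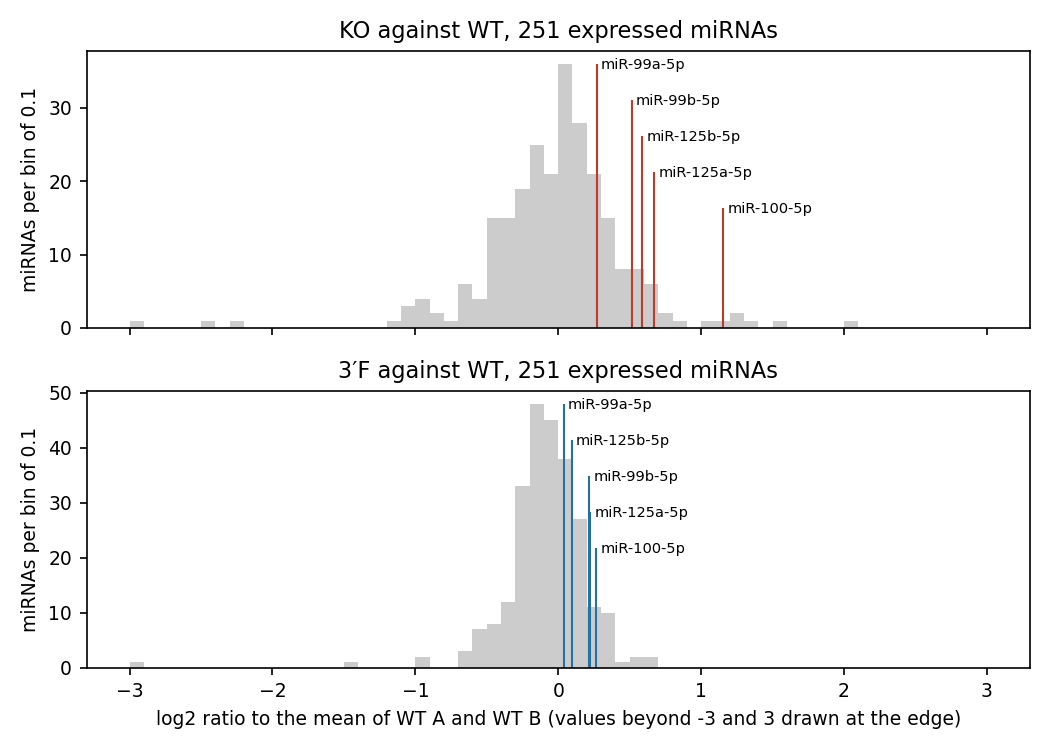
Distribution of the log2 ratio to WT over the 251 expressed miRNAs in KO (upper panel) and 3′F (lower panel), in bins of 0.1 on the log2(RPM + 1) scale, with the 5 members as vertical lines. In KO the members lie from 0.27 to 1.15, right of the median of 0.01, and in 3′F from 0.04 to 0.26, with a median of -0.08 over all expressed miRNAs.

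The members were then compared by genomic cluster, using products that only 1 hairpin gives. The 3 clusters have 14 such products among the 5p and 3p strands of their hairpins. In KO, 12 of the 14 were above both WT libraries, 1 lay below both and 1 was at 0 in every library. The 12 include let-7a-2-3p and the 1 below is miR-99a-3p, and both had too few counts for their place to be read. Of the 14, 10 were among the 251 expressed miRNAs, of which 37.8% were above both WT libraries, and the 14 include members that were chosen with their ratios known. Strands of the same hairpin or cluster are also not separate observations. Leaving out miR-99a-3p, at -0.10 on 16 to 22 counts a library, KO log2 ratios ran from 0.27 to 0.62 in the cluster with miR-99a. In the cluster with miR-99b they ran from 0.43 to 0.87. In the cluster with miR-100, only miR-100-5p, at 1.15, and miR-125b-1-3p, at 1.55, had enough counts for a ratio to be read. Counts were whole in every library for miR-99b-5p, both miR-125a strands and both miR-125b 3p strands. Fractional counts were held by miR-99a-5p, miR-99a-3p, miR-100-5p, miR-99b-3p, let-7c-1-3p, let-7a-2-3p and both let-7e strands, which thus include reads divided between lines.

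The cluster with miR-100 held the largest ratios. miR-125b-1-3p, the 3p strand of the hairpin that shares this cluster, had 82 counts for WT A, 45 for WT B, 280 for KO and 103 for 3′F, all whole. These are 4.80, 3.94, 14.7 and 6.36 RPM. KO stood apart from the other libraries, and 3′F was above both WT libraries, with an interval that overlapped those of both. The log2 ratio was 1.55 for KO and 0.46 for 3′F, against -0.23 for WT B relative to WT A. Its mean over the libraries was below 10 RPM, so it is not among the 251. miR-100-3p was at 0 counts in all 4 libraries, and a count of 3 would be 0.157 RPM for KO and 0.263 RPM for WT B. let-7a-2-3p, the remaining product of this cluster, had 4.5, 1.5, 6 and 4.5 counts in WT A, WT B, KO and 3′F, too few for a difference to be detectable.

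The 3p strand of the other miR-125b hairpin, in the cluster with miR-99a, was more abundant and its ratio was smaller. miR-125b-2-3p had 1617 counts for WT A, 875 for WT B, 2322 for KO and 1585 for 3′F, which are 94.7, 76.7, 122 and 97.9 RPM. KO was highest and 3′F was close to WT A. The log2 ratio was 0.51 for KO and 0.20 for 3′F, against a WT difference of -0.30. For 3′F it was 0.35 over WT B and 0.05 over WT A.

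Taken as a share of both miR-125b 3p strands, miR-125b-1-3p made up 4.83% for WT A (95% Wilson interval 3.91% to 5.95%), 4.89% for WT B (3.68% to 6.48%), 10.8% for KO (9.63% to 12.0%) and 6.10% for 3′F (5.06% to 7.35%). KO had the highest value. miR-100-5p as a share of the miR-99/100 family was 0.224% for WT A (0.209% to 0.240%), 0.245% for WT B (0.224% to 0.268%), 0.397% for KO (0.379% to 0.415%) and 0.256% for 3′F (0.240% to 0.274%). The highest value of both shares was that of the single KO library. These intervals cover counting error only, and at this depth WT cultures can differ by more: those of miR-99b-5p, 11092 to 11192 RPM for WT A and 9129 to 9240.1 RPM for WT B, did not overlap either.

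**Figure D3:**
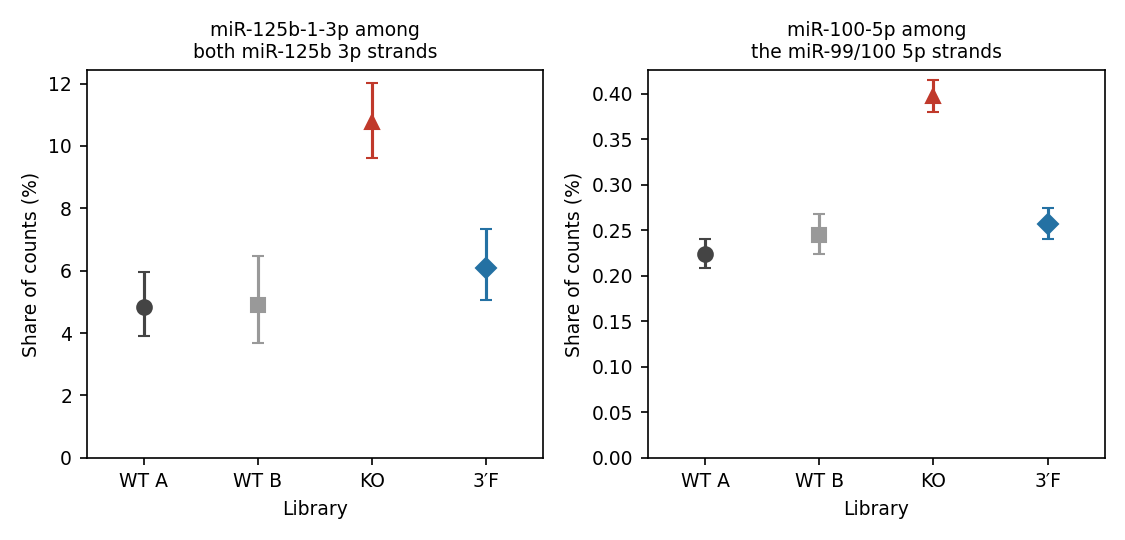
Share of miR-125b-1-3p among the counts of both miR-125b 3p strands (left) and of miR-100-5p among the counts of the 3 miR-99/100 5p strands (right), in percent from 0, with 95% Wilson intervals as bars. In both panels KO, at 10.8% and 0.397%, lies above WT A, WT B and 3′F.

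In the cluster with miR-99b, which is the most compact, all 6 products of its 3 hairpins were above both WT libraries in KO and in 3′F, against 37.8% and 22.7% of expressed miRNAs. These 6 strands come from 3 hairpins that lie close together, so they are not separate observations. They include miR-99b-5p and miR-125a-5p, which were chosen with their KO ratios known, and nothing further is read from the shares. miR-99b-3p was at 617 RPM for WT A, 641 for WT B, 851 for KO and 697 for 3′F, a log2 ratio of 0.43 for KO and 0.15 for 3′F. miR-125a-3p was at 41.4, 42.1, 68.7 and 51.7 RPM, a log2 ratio of 0.71 for KO and 0.30 for 3′F, and thus close to its 5p partner. let-7e-5p, between them on the chromosome, was at 1945, 1891, 2861 and 2362 RPM, and let-7e-3p at 22.1, 22.4, 41.6 and 29.1 RPM. The KO ratio was 0.58 for let-7e-5p and 0.87 for let-7e-3p. In every one of these 6 products the order of libraries was the same at the top, with KO first and 3′F second.

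In the cluster with miR-99a, miR-99a-5p, let-7c-1-3p and miR-125b-2-3p were above both WT libraries in KO, against 37.8% of expressed miRNAs. Of these, miR-99a-5p was chosen with its KO ratio known. let-7c-1-3p was at 62.6 RPM for WT A, 81.8 for WT B, 110.7 for KO and 73.0 for 3′F. Its log2 ratio in KO was 0.62, while 3′F lay between the WT libraries. miR-99a-3p, the passenger strand, had 20.5, 16, 22 and 20 counts, or 1.20, 1.40, 1.15 and 1.23 RPM, and at this depth no difference between libraries was detectable.

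The balance of strands was then compared within each hairpin. The 3p strand made up 2.85% of miR-125a hairpin counts in WT A, 2.60% for WT B, 2.81% for KO and 2.89% for 3′F. For the miR-99b hairpin it was 5.25%, 6.53%, 5.56% and 5.60%, with both mutants between the WT libraries, which themselves differed beyond counting error. For miR-99a it was 0.0132%, 0.0179%, 0.0113% and 0.0142%, from 16 to 22 counts a library. miR-99a thus had almost none of its counts on the 3p strand, and the larger KO ratios of the miR-125a pair were seen on both strands.

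**Figure D4:**
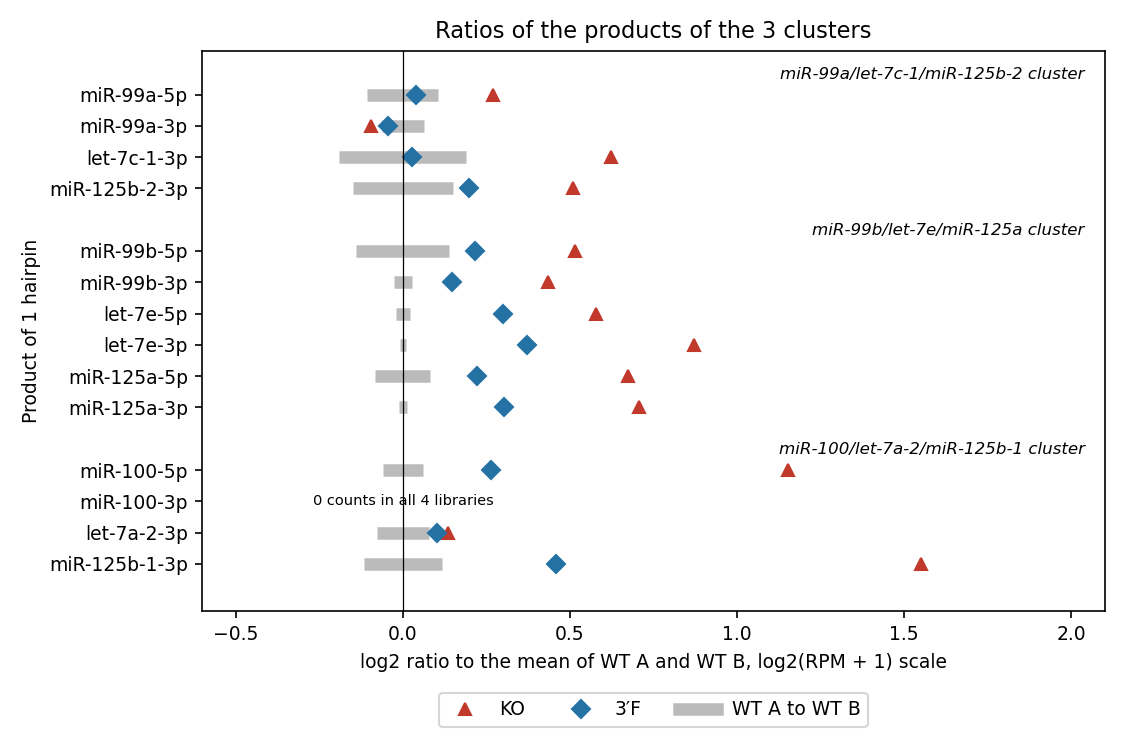
Log2 ratio to the averaged WT libraries, on the log2(RPM + 1) scale, for the 14 products given by 1 hairpin, grouped by cluster, in KO (triangles) and 3′F (diamonds), with the WT cultures as grey bars. The highest KO values are 1.55 for miR-125b-1-3p and 1.15 for miR-100-5p, and for all 6 products of the miR-99b cluster KO lies right of 3′F and 3′F right of WT.

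In 3′F, 4 of the 5 members were above both WT libraries, and miR-99a-5p lay between them. Across the 251 expressed miRNAs 22.7% were above both WT libraries in 3′F. At 1.5-fold, 0 of the 5 were higher, against 0.398% of expressed miRNAs, and at 2-fold 0 of the 5 against 0% (0 of 251). The median log2 ratio of the members was 0.22, against -0.08 over all expressed miRNAs, and it fell to 0.15 over WT B alone and 0.10 over WT A alone. KO and 3′F are set against the same WT libraries, so their ratios are not independent of each other. For each of the 5, the KO level was above the 3′F level, and with 1 library of each the difference between the genotypes was not tested.

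The other expressed miRNA with the miR-125 seed, miR-351-5p, was at 699 RPM for WT A, 982 for WT B, 917 for KO and 711 for 3′F, so that both mutants lay between the WT libraries. miR-6367 and miR-6394 were at 0 in all libraries. The log2 ratio of miR-351-5p was 0.15 for KO and -0.22 for 3′F, and WT B was 0.49 above WT A, so that its place depends on the WT library it is set against.

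The let-7 strands that several hairpins give cannot be assigned to a cluster. let-7c-5p was at 3297 RPM for WT A, 3819 for WT B, 5048 for KO and 3649 for 3′F. let-7a-5p was at 8589.6, 11517, 13433 and 10071 RPM. Both were highest in KO and between the WT libraries in 3′F. Among the 9 let-7 family 5p strands listed, 7 were above both WT libraries in KO and 2 below, with a median log2 ratio of 0.32, against 37.8% above both and a median of 0.01 over all expressed miRNAs. The most abundant of the 9, let-7i-5p, was at 74790.5, 76588, 73136 and 73049 RPM and was below both WT libraries in both mutants. The list leaves out let-7j, at a mean of 2984 RPM in WT, with a log2 ratio of 0.07 for KO and -0.13 for 3′F.

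For each member, the 3 expressed miRNAs with the most similar profile over the 4 libraries were found by the Euclidean distance between log2(RPM + 1) profiles centred on their own means, out of 250 compared. With 4 libraries this is a description of few points that share their totals. miR-99b-5p was nearest to miR-125b-2-3p, at a distance of 0.0225, followed by miR-339-3p and miR-192-5p. miR-125a-5p was nearest to its own 3p strand, miR-125a-3p, at 0.119, followed by miR-5129-3p and miR-125b-5p. miR-125b-5p was nearest to miR-152-3p, at 0.0505, then miR-192-5p and miR-99b-3p. miR-99a-5p was nearest to miR-28a-5p, at 0.0638, then miR-3068-3p and miR-126a-3p. miR-100-5p had the most distant neighbours, miR-139-5p at 0.178, let-7e-3p at 0.305 and miR-125a-3p at 0.411. Several of these neighbours come from another cluster than the member, such as miR-125b-2-3p beside miR-99b-5p, and let-7e-3p and miR-125a-3p beside miR-100-5p.

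Markers of other cells differed between the libraries as well. All 4 erythroid miRNAs listed were below both WT libraries in KO and in 3′F. At 1.5-fold, 3 of the 4 were lower in each mutant, against 15 of the 251 expressed miRNAs in KO and 5 in 3′F. The 3 hold a pair of lines at almost equal levels. In WT A, WT B, KO and 3′F, the line of miR-486b-5p stood at 76.55, 64.54, 33.84 and 36.96 RPM. That of miR-486a-5p stood at 74.09, 63.49, 32.32 and 35.17 RPM. Both lines held fractional counts, so they include reads divided between lines and are not taken as separate observations. The 4 erythroid miRNAs summed to 169.7 RPM for WT A, 158.6 for WT B, 70.3 for KO and 80.3 for 3′F, and the most abundant was miR-486b-5p. miR-451a, the defining erythroid miRNA, was at 18.7, 30.0, 4.09 and 8.03 RPM. The erythroid levels were low in both mutants, whereas each of the members was highest in KO, and the part of these cells in the members' ratios was not tested.

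Of the miRNAs known from stem and progenitor cells, where miR-125 and miR-99 forms are also made, miR-10a-5p was at 3888 RPM for WT A, 4080.2 for WT B, 4699.85 for KO and 5402 for 3′F. miR-196b-5p was at 1.38, 1.31, 0.63 and 1.11 RPM and miR-130a-3p at 0.61, 0.74, 0.45 and 0.37 RPM. Each was below both WT libraries in KO and in 3′F, but on only 12 to 23.5 and 6 to 10.5 counts a library. At this depth no difference between libraries was detectable for either. The 3 summed to 3890.3, 4082, 4701 and 5403 RPM, almost all of it miR-10a-5p. miR-126a-3p, known from endothelial and progenitor cells, was at 10.7, 9.82, 13.2 and 10.3 RPM, and with miR-126a-5p it summed to 11.1, 10.2, 14.0 and 11.05 RPM. miR-126a-5p, the other strand of the same hairpin, was at 0.41, 0.35, 0.84 and 0.74 RPM, from 4 to 16 counts a library. Both strands were highest in KO, but with intervals that overlapped those of every other library. The part of such cells in the members' ratios was not tested.

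The 5 fibroblast and stromal miRNAs summed to 5.77 RPM for WT A, 5.90 for WT B, 5.83 for KO and 5.28 for 3′F. The 7 macrophage and myeloid miRNAs, of which miR-21a-5p is the most abundant, summed to 388991, 349762, 336771 and 357299 RPM. In KO, 2 of the 7 were above both WT libraries, against 37.8% of the 251 expressed miRNAs. In 3′F, 0 were above both, against 22.7%. Below both WT libraries were 4 in KO and 3 in 3′F. The share of expressed miRNAs below both was not counted, so nothing is read from these 4 and 3. The list of 7 includes miR-146a-5p, which the genotypes themselves remove or alter. It alone of the 7 was lower at 1.5-fold, in KO and in 3′F, against 15 and 5 of the 251 expressed miRNAs. With miR-21a-5p left out of the library totals, the KO ratios of the members ran from 0.21 to 1.10.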

How the data were processed

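Small RNA libraries were made with a NEBNext small RNA kit, and the submitters' processing notes name cutadapt 1.8.3. The aligner, the miRNA release and the genome build are not given in the sources used here. The table deposited by the authors holds estimated counts, partly fractional, on 2129 lines of mature miRNA and precursor. Beside them the authors gave RPM, which scale a count to the total over all lines. Between 10.8% and 12.3% of the lines of a library were not whole. From these, 1 line per miRNA was kept, and ratios were taken on the log2(RPM + 1) scale against the averaged WT libraries. With this pseudocount, changes of rare miRNAs are understated.

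Calls required 2-fold or more from WT A and from WT B, in 1 direction. Wilson intervals (95%) cover counting error only, and a floor of 3 counts was 0.157 to 0.263 RPM. The members and lists were chosen with earlier results of these data known, and the marker lists come from general knowledge. Named miRNAs are the members, their other strands, cluster neighbours, markers, miR-146a-5p and the 3 nearest profiles per member. miR-351-5p, miR-6367 and miR-6394 were named after their values were seen, for their seed, and miR-146swap-5p likewise, for the label check. let-7j was also named after its values were seen, because the let-7 list leaves it out. Python 3.11.15 with pandas 2.3.3 was used, and edgeR 4.0.16 and DESeq2 1.42.0 (R 4.3.3) gave other scalings only, on rounded counts. The functions were tested on simulated data. The deposited counts of WT A and WT B differed beyond sampling noise and were kept as 2 cultures.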

Additional observations from a re-analysis of the deposited data

How the results depend on the processing

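Of 248 values recomputed under other settings, 214 stayed within a set limit, 34 moved by more and 0 called values reversed. The limit was the SD of the WT cultures for ratios and 1.5 times for counts of miRNAs. For strand shares it was the Wilson interval, and the order of levels had to be unchanged. Leaving out 1 WT library moves the ratio of a single miRNA or family by less than that SD in any data. For those ratios this setting was therefore no check. The cause of the 34 moves was not tested. All 5 members were above both WT libraries in KO, and 4 in 3′F, under each of the 4 other scalings, and none of these scalings shifted the median of all expressed miRNAs by 0.1. With both WT libraries kept, the KO ratio of miR-100-5p ran from 1.10 to 1.20 and that of miR-99a-5p from 0.21 to 0.31, and with a single WT library from 1.09 to 1.21 and from 0.16 to 0.38. With a single WT library the members' median in 3′F, 0.22, was from 0.10 to 0.15, and the 3′F ratio of miR-99a-5p ran from -0.07 (without WT B) to 0.15 (without WT A), so its sign turned. With the miR-125b-5p lines summed, an alternative chosen after seeing the data, the miR-125 family ratio went from 0.65 to 0.63 for KO and from 0.19 to 0.17 for 3′F.

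For KO, 9 miRNAs were called. A threshold of 1.5-fold gave 27 and one of 3-fold gave 4, a minimum of 1 RPM or no minimum gave 17 and one of 100 RPM gave 3, and a single WT library gave 13 to 15. The members called higher in KO numbered 1, which 1.5-fold raised to 2 and 3-fold lowered to 0, as did the minimum of 100 RPM, which removes miR-100-5p. For 3′F, 2 miRNAs were called, against 6 when the threshold was 1.5-fold, 1 when it was 3-fold, 1 under the minimum of 100 RPM, 3 with a minimum of 1 RPM or none, and 2 to 5 with a single WT library. No paired analysis was possible because each mutant genotype has 1 library. In the deposited data KO and 3′F carry the letter A, as WT A does. The paper uses such letters to identify culture replicates, and whether they pair the libraries is not given in the sources used here. Over WT A alone, the members' median in 3′F was 0.10 and the 3′F ratio of miR-99a-5p was -0.07. Depth limits the rare strands most, with miR-99a-3p at 16 to 22 counts and miR-125b-1-3p at 45 in WT B.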
